A study of Homo sapiens with 6 samples.

Results

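The arms of miR-99a, miR-99b, miR-100, miR-125a and miR-125b are the mature miRNAs made from the hairpins that lie beside let-7 hairpins on chromosomes 11, 19 and 21. They were taken by name, from hsa-miR-99a-5p to hsa-miR-125b-2-3p and 10 arms in all, and 9 of them are among the 1000 mature miRNAs listed in the count table. The tenth, miR-125b-1-3p, was not analysed here. Mature miRNAs were sequenced from 3 libraries of wild type cells of HEK 293T, an immortalized line from human embryonic kidney, and 3 libraries of the TENT3A/B double knockout made in it, called ΔTUT4/7 here. TENT3A and TENT3B are the uridylyltransferases TUT4 and TUT7, which add uridines to the 3′ end of RNA. Both strains were grown in the same medium with serum and had no further treatment. The knockout came from another laboratory and is 1 strain, so any other difference between the strains is part of each comparison. Each library's total was between 4338558 and 7967606 counts, and values are given as CPM, each count scaled to that total. The arms' summed level was 10917 ± 1316 CPM in ΔTUT4/7 cells, against 20098 ± 2220 CPM in wild type cells (± SD over 3 libraries each), or 1.09% ± 0.132 and 2.01% ± 0.222 of all counts. The arms therefore had 45.7% less of the counts in ΔTUT4/7 cells, and the 3 libraries of each strain did not overlap (exact 2-sided permutation test, p = 0.1, the smallest that 3 libraries against 3 can give).

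As background, a miRNA gene is transcribed as a long primary transcript, from which DROSHA cuts out hairpins. DICER then cuts each hairpin to a duplex of a 5p and a 3p arm, and usually 1 of the arms is kept in the silencing complex. The bases at positions 2 to 8, the seed, do most of the pairing with target mRNAs. A miR-99 or miR-100 hairpin, a let-7 hairpin and a miR-125 hairpin stand together in many animals, and in vertebrates the group is present in several copies. Both miR-125 and let-7 are known to repress LIN28, the protein that brings TUT4 and TUT7 to let-7 precursors, while miR-99 and miR-100 are known for repressing the kinase mTOR. Group II precursors have a short 3′ overhang that is extended by a single nucleotide before DICER cuts them. In the list of group II hairpins that the study took from MirGeneDB, miR-99a and miR-99b are included, and miR-100, miR-125a and miR-125b are not.

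The 5p arms fall into a pair of seed families, which are shown because the results below are read by family and by cluster. The sequences are those of RefSeq for GRCh38.p14, written 5′ to 3′ with the seed in capitals.
hsa-miR-99a-5p: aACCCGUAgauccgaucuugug
hsa-miR-99b-5p: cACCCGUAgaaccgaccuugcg
hsa-miR-100-5p: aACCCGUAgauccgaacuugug
hsa-miR-125a-5p: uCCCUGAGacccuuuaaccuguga
hsa-miR-125b-5p: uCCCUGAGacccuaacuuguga
Of these, 3 carry ACCCGUA and the other two CCCUGAG. Counted from the 5′ end, miR-100-5p differs from miR-99a-5p at 1 base, U16A, where the first letter is that of miR-99a-5p. In the first 18 nt, to which the reads were trimmed before alignment, miR-99b-5p differs from miR-99a-5p at 3 bases (A1C, U11A and U16C), and miR-125b-5p differs from miR-125a-5p at 5 bases. None of the 9 arms shares its first 18 nt with another listed miRNA.

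The 3p arms are shown in the same way, because they are the arms that tell the miR-125b hairpins apart.
hsa-miR-99a-3p: cAAGCUCGcuucuaugggucug
hsa-miR-99b-3p: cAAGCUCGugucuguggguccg
hsa-miR-125a-3p: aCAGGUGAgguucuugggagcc
hsa-miR-125b-2-3p: uCACAAGUcaggcucuugggac
hsa-miR-125b-1-3p: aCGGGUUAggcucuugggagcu
Both miR-99 3p arms carry the seed AAGCUCG, and the miR-125 3p arms have a different seed each. The first 18 nt of miR-125b-2-3p occur at 3 places in hg38, on chromosome 21 at the hairpin, on chromosome 1 from 247367636 to 247367653 and on chromosome 2 from 1170201 to 1170218, so by sequence its trimmed reads cannot be given to the hairpin alone. The first 18 nt of miR-125b-5p occur at 2 places, in the miR-125b-1 hairpin on chromosome 11 and in the miR-125b-2 hairpin on chromosome 21. Each of the other listed arms has 1 exact match.

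By GENCODE release 44 on hg38, the chromosome 19 cluster is the tightest. MIR99B (51692612 to 51692681), MIRLET7E (51692786 to 51692864) and MIR125A (51693254 to 51693339) lie on the plus strand within 0.728 kb, inside the protein-coding gene SPACA6. MIR99B and MIRLET7E are intronic there, and MIR125A overlaps an exon of a SPACA6 transcript. On chromosome 21, MIR99A (16539089 to 16539169, intronic) and MIRLET7C (16539828 to 16539911) are 0.658 kb apart, and MIR125B2 (16590237 to 16590325) follows after 50.3 kb, all on the plus strand in the long non-coding RNA gene MIR99AHG. On chromosome 11, MIR100 (122152229 to 122152308), MIRLET7A2 (122146522 to 122146593) and MIR125B1 (122099757 to 122099844) lie on the minus strand in introns of MIR100HG, spread over 52.6 kb. The hairpins whose arms were both measured and come from that hairpin alone are printed with the arms in capitals.
MIR99A: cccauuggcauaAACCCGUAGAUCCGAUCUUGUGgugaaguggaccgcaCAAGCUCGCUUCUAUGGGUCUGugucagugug
MIR99B: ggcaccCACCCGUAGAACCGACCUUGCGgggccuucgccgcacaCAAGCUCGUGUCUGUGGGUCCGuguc
MIR125A: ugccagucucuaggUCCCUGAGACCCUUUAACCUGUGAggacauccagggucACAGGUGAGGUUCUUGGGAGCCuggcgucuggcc
Between the arms lie 15 nt in MIR99A, 16 nt in MIR99B and 14 nt in MIR125A.

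Libraries of 1 strain were further apart than counting alone allows. A chi-square test was run on each pair of libraries, without the miRNAs of lowest summed count in that pair. Divided by its degrees of freedom, it gave 293.2 and 283.7 for wild type replicate 3 against the other wild type libraries. Between themselves, those other libraries gave 99.2. Pairs of ΔTUT4/7 libraries gave 13.3 to 54.9. Wild type replicate 3 thus stood apart. The let-7 and miR-98 arms took 19.2% to 19.7% of the counts in ΔTUT4/7 libraries and 5.57% to 6.36% in wild type libraries, a gain that by itself lowers the CPM of all other miRNAs in ΔTUT4/7 cells. The share of miR-16-5p was 23.5% to 28.0% in wild type and 17.5% to 17.8% in ΔTUT4/7 libraries. Part of that fall follows from the let-7 gain, and only the remainder raises the CPM of other miRNAs. The mRNAs of TUT4 and TUT7 are not measured by mature miRNA sequencing, so the strain labels were not checked with the deleted genes. No miRNA marks HEK 293T cells alone. Of 12 miRNAs that define liver, blood, muscle, endothelium or fibroblasts, 7 are listed and all 7 had a count in every library. Their summed level was 4830 to 5107 CPM in ΔTUT4/7 and 3770 to 4820 CPM in wild type libraries, nearly all of it from the endothelial miR-126 arms. Of these, miR-126-3p was higher in ΔTUT4/7 (3831 to 3938 CPM) than in wild type libraries (2799 to 3614 CPM), and miR-126-5p overlapped. The markers of other tissues were mostly lower in ΔTUT4/7, as the arms were. Fibroblast miR-143-3p had 0.853 to 2.76 CPM in ΔTUT4/7 and 11.04 to 13.1 CPM in wild type libraries, and blood miR-142-3p had 30.9 to 36.3 CPM and 49.5 to 96.3 CPM. Also without overlap, blood miR-142-5p had 1.38 to 1.87 CPM and 2.76 to 5.76 CPM, and liver miR-122-5p had 0.208 to 0.788 CPM and 1.13 to 1.76 CPM, in the same order. Red cell miR-451a, at 0.416 to 0.640 CPM and 0.628 to 1.13 CPM, overlapped. Their part in the results was not tested.

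Every one of the 9 arms had a lower mean level in ΔTUT4/7 than in wild type cells. The quasi-likelihood test of edgeR, with Benjamini-Hochberg adjustment, was run on the 826 miRNAs whose highest count exceeded 7, and all 9 arms were among them. Each also had a count above 7 in the ΔTUT4/7 libraries. At an adjusted p under 0.05, 8 arms decreased, against 21.9% of all tested miRNAs, and none increased, against 23.2%, since all 9 log2 fold changes were negative. With the study's limit of 2-fold added, 4 arms decreased, against 13.6% of all tested miRNAs, and none increased, against 16.5%. In 8 arms all ΔTUT4/7 libraries lay below all wild type libraries, as they did in 29.5% of tested miRNAs, and in no arm did they all lie above, as in 28.8%. The median log2 fold change was -0.90 over the 9 arms and 0.013 over all tested miRNAs. The arms are not independent, since several come from 1 hairpin or 1 transcript. With totals from which the let-7 and miR-98 counts were left out (let-7-free totals), which raise the median of all tested miRNAs to 0.23, the median of the arms was -0.68, 6 arms decreased at an adjusted p under 0.05, against 16.5% of all tested miRNAs in that fit, and 1, miR-125b-5p, by at least 2-fold, against 9.81%. The 2-fold count is then near the background. In bulk libraries, fewer cells with an arm and fewer copies of it per cell cannot be told apart.

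**Figure D1:**
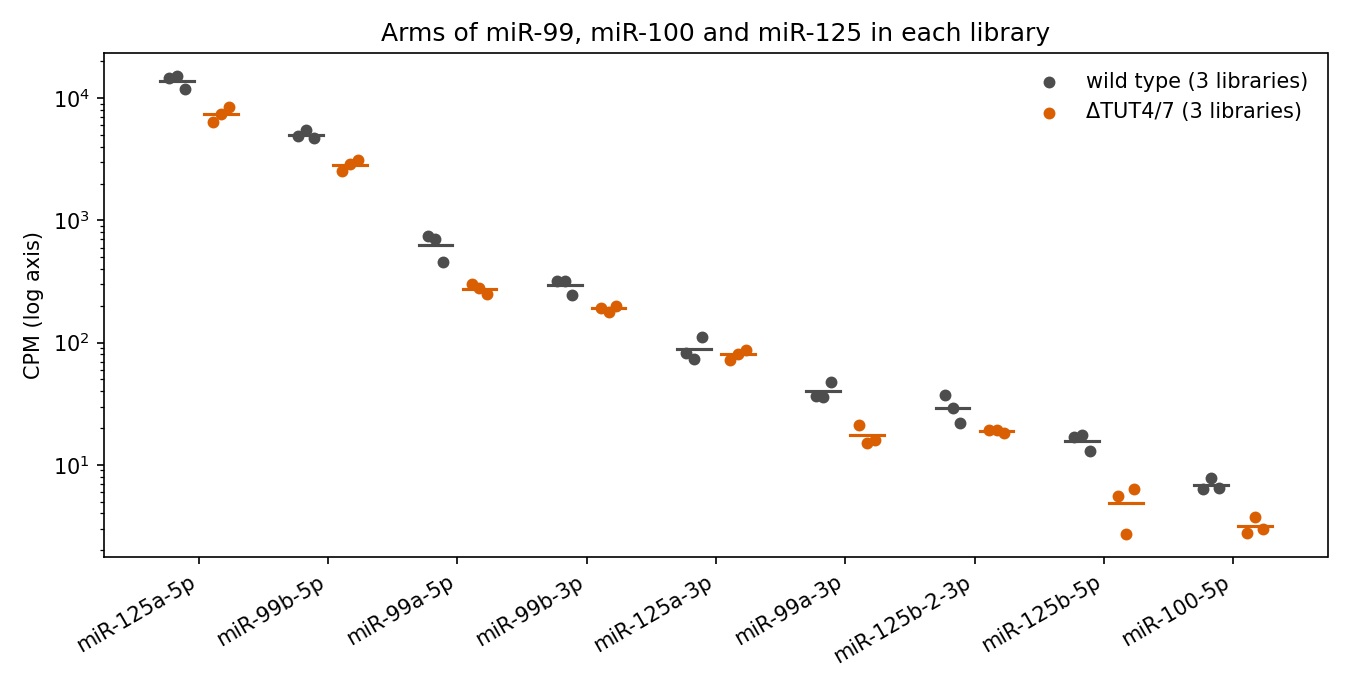
Level of each of the 9 arms (CPM, log axis), ordered by the wild type mean, with 1 point for each of the 3 libraries of a strain and a line at the mean. The ΔTUT4/7 points lie below the wild type points in 8 arms and overlap them in miR-125a-3p. The strain means run from 13950 CPM for miR-125a-5p in wild type to 3.16 CPM for miR-100-5p in ΔTUT4/7 cells.

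The chromosome 19 cluster gave nearly all of the counts of these arms, 97.1% in ΔTUT4/7 and 96.4% in wild type cells. miR-125a-5p was the most abundant arm, at 6411, 7494 and 8517 CPM in ΔTUT4/7 replicates 1, 2 and 3 and 14629, 15221 and 11999 CPM in wild type replicates 1, 2 and 3. The lowest wild type library, replicate 3, was still above the highest ΔTUT4/7 library, replicate 3. The means were 7474 ± 1053 and 13950 ± 1715 CPM (± SD over 3 libraries each), a log2 fold change of -0.90 (SE 0.14, adjusted p = 2.9e-04 in edgeR), or 1.87-fold lower. Without ΔTUT4/7 replicate 3 it passed the 2-fold limit as well, at -1.005, and with let-7-free totals it was -0.68 (adjusted p = 0.0018 in edgeR). Its neighbour miR-99b-5p had 2557, 2880 and 3116 CPM in ΔTUT4/7 and 4929, 5482 and 4711 CPM in wild type replicates 1, 2 and 3. The ranges of miR-99b-5p stayed well apart, and its log2 fold change was -0.82 (SE 0.13, adjusted p = 3.25e-04 in edgeR), or 1.77-fold lower. With let-7-free totals the value for miR-99b-5p was -0.60 (adjusted p = 0.0024 in edgeR). Levels of miR-99b-3p, the arm usually taken as the passenger, were 193, 180 and 200.5 CPM in ΔTUT4/7 and 319, 320 and 246 CPM in wild type replicates. The strains did not overlap for miR-99b-3p, with wild type replicate 3 the nearest, and the log2 fold change was -0.63 (SE 0.16, adjusted p = 0.0079 in edgeR). Without ΔTUT4/7 replicate 2 its adjusted p in edgeR was 0.052, and with let-7-free totals it was 0.057.

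miR-125a-3p was the 1 arm of the 9 that did not pass the test. It had 72.1, 80.5 and 87.7 CPM in ΔTUT4/7 and 82.3, 73.4 and 111 CPM in wild type replicates 1, 2 and 3, so the libraries of the strains were mixed in order. Its log2 fold change was -0.15 with a 95% interval of -0.57 to 0.28 (adjusted p = 0.56 in edgeR). The value was 0.043 without wild type replicate 3 and 0.074 with let-7-free totals. The 5p arm exceeded the 3p arm 88.9, 93.1 and 97.2 times in the ΔTUT4/7 libraries and 178, 207 and 108 times in the wild type libraries. That ratio, which does not depend on the library total, was lower in all 3 ΔTUT4/7 libraries, by 0.77 on the log2 scale (exact 2-sided permutation test, p = 0.1, adjusted p = 0.275 over the 11 ratios computed). Wild type replicate 3 lay nearest to the ΔTUT4/7 libraries in this ratio, and the log2 difference was -1.05 without it.

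The chromosome 21 cluster was less abundant, with 312.6 ± 29.1 CPM in ΔTUT4/7 against 701.5 ± 153 CPM in wild type cells (± SD over 3 libraries each) summed over the miR-99a arms and miR-125b-2-3p, or 55.4% less. For miR-99a-5p, the CPM were 300.4, 280 and 248 in ΔTUT4/7 and 739, 700.1 and 457.5 in wild type replicates 1, 2 and 3. Wild type replicate 3 was well below the other two, and all ΔTUT4/7 libraries were lower still. The means of 276 ± 26.2 and 632 ± 153 CPM (± SD over 3 libraries each) gave a log2 fold change of -1.20 (SE 0.19, adjusted p = 4.03e-04 in edgeR), or 2.29-fold lower. The level of its partner arm miR-99a-3p was 21.1, 15.2 and 16.0 CPM in ΔTUT4/7 and 36.3, 35.8 and 47.5 CPM in wild type replicates. Here wild type replicate 3 was the highest library and not the lowest, and the strains again did not overlap. The log2 fold change of miR-99a-3p was -1.19 (SE 0.22, adjusted p = 9.57e-04 in edgeR), or 2.28-fold lower. With let-7-free totals, both miR-99a arms passed the adjusted p but not the 2-fold limit, at -0.97 and -0.96.

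miR-125b-2-3p, the arm that marks the far end of the chromosome 21 cluster, had 19.3, 19.3 and 18.3 CPM in ΔTUT4/7 and 37.2, 29.2 and 21.9 CPM in wild type replicates. The ΔTUT4/7 libraries lay close together, and the lowest wild type library was only slightly above them. Its log2 fold change of -0.63 (SE 0.22) had an adjusted p of 0.038 by edgeR's quasi-likelihood test, and this call was unstable. It was lost in 5 of the 6 fits that left out a library, where its adjusted p in edgeR ran from 0.073 to 0.14, and held without wild type replicate 3, where the value was -0.80. With let-7-free totals the value was -0.41 (adjusted p = 0.15 in edgeR).

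From chromosome 11, miR-100-5p was the 1 arm measured that is specific to the cluster by name, and it was the least abundant of the 9. It had 14, 18 and 14 counts in ΔTUT4/7 and 28, 62 and 28 counts in wild type replicates 1, 2 and 3, or 3.16 ± 0.515 and 6.86 ± 0.799 CPM (± SD over 3 libraries each). The libraries of the strains did not overlap, and the log2 fold change was -1.13 (SE 0.28, adjusted p = 0.0065 in edgeR), or 2.18-fold lower. It fell under the 2-fold limit with limma-trend (-0.92) and with let-7-free totals (-0.90). In a comparison chosen after its values were seen, the count of miR-100-5p was 0.859% to 1.41% of that of miR-99a-5p in the 6 libraries. The single base by which these arms differ, U16A, lies within the trimmed reads, and whether reads of miR-99a-5p were counted as miR-100-5p was not tested. miR-100-3p and let-7a-2-3p, the other arms that would mark this cluster, were not analysed here.

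**Figure D2:**
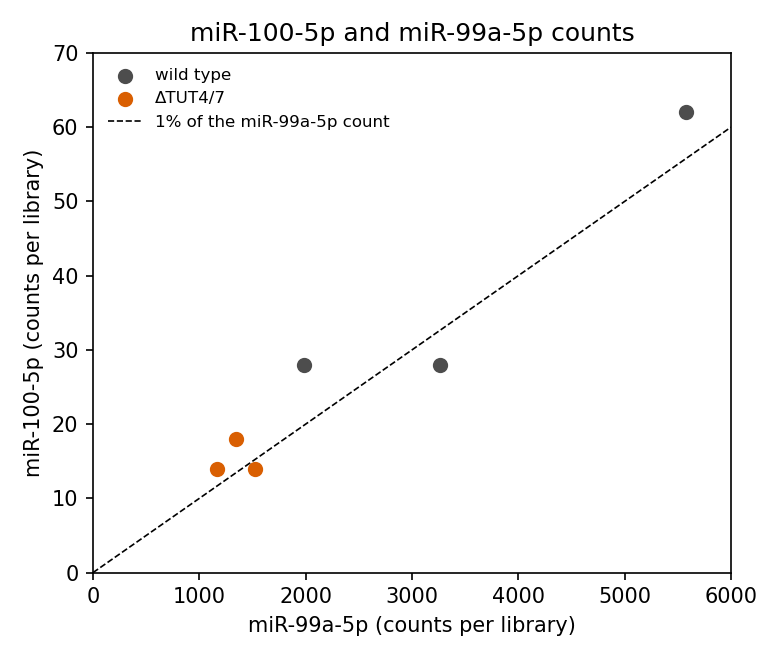
Counts of miR-100-5p (vertical axis) against counts of miR-99a-5p (horizontal axis), with 1 point for each of the 6 libraries and a dashed line at 1% of the miR-99a-5p count. All 6 points lie near the line, between 0.859% and 1.41%.

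miR-125b-5p, which the chromosome 11 and chromosome 21 hairpins both encode, had the lowest log2 fold change of the 9 arms. Its counts were 28, 13 and 30 in ΔTUT4/7 and 75, 139 and 56 in wild type replicates 1, 2 and 3, or 4.87 ± 1.93 and 15.8 ± 2.50 CPM (± SD over 3 libraries each). The highest ΔTUT4/7 library had 6.40 CPM and the lowest wild type library 12.9 CPM. The log2 fold change was -1.70 (SE 0.30, adjusted p = 8.61e-04 in edgeR), or 3.24-fold lower, and ranged from -1.93 to -1.41 over the 15 alternatives. It was at least 2-fold lower with an adjusted p under 0.05 in all 15, let-7-free totals included. In a further comparison chosen after the values were seen, the 5p arm of miR-125b was less abundant than the 3p arm of miR-125b-2 in 6 of 6 libraries, at 13.98% to 59.7% of its count. By their first 18 nt, the 5p arm has 2 places of origin in the genome and the 3p arm 3.

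**Figure D3:**
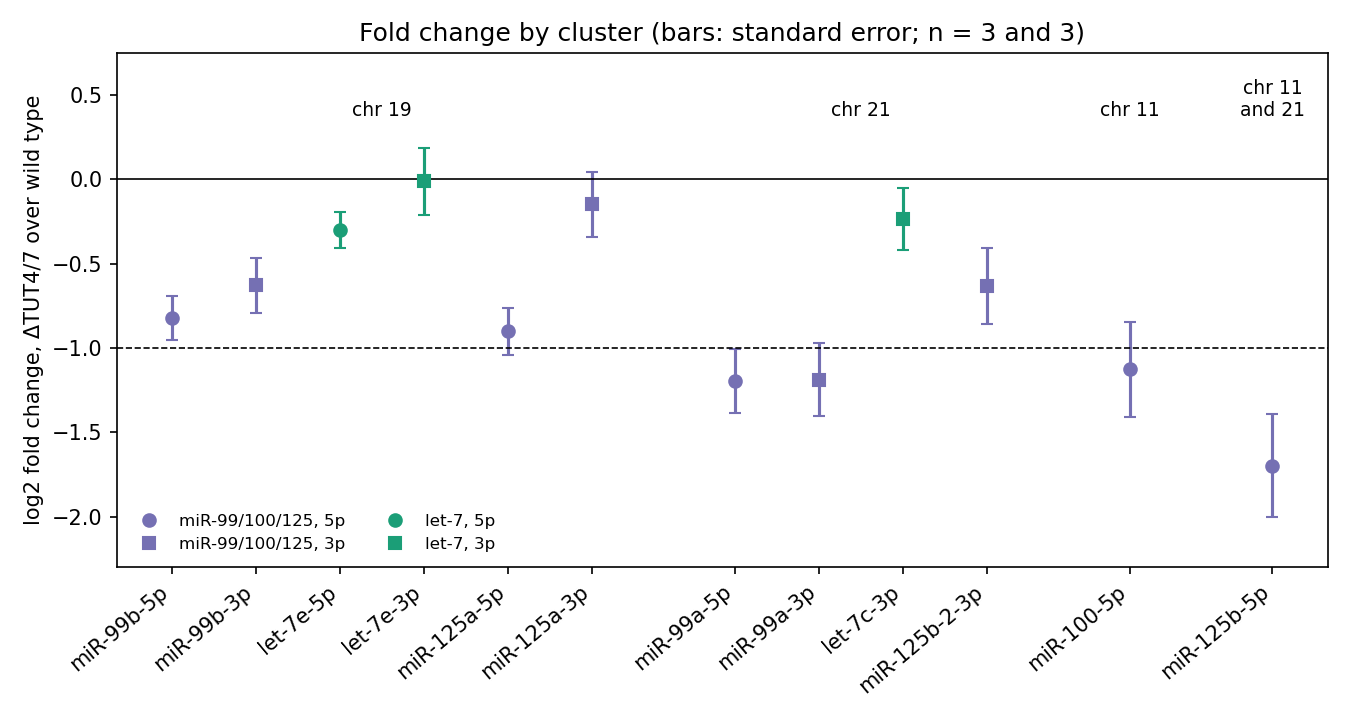
Fitted log2 fold change of ΔTUT4/7 over wild type cells for the 9 arms and for the let-7 arms of the same clusters, grouped by chromosome, with bars of 1 standard error (3 libraries a strain), circles for 5p and squares for 3p arms, and a dashed line at -1, the 2-fold limit. The miR-99, miR-100 and miR-125 arms lie between -0.15 and -1.70, and let-7e-5p, let-7e-3p and let-7c-3p lie between -0.01 and -0.30.

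The let-7 hairpins inside the clusters were compared with the arms on either side of them. let-7e-5p, on chromosome 19, had 6160, 6248 and 6497 CPM in ΔTUT4/7 and 7560, 7746 and 7948 CPM in wild type replicates. The strains did not overlap, and its log2 fold change was -0.30 (SE 0.11, adjusted p = 0.041 in edgeR). The call of let-7e-5p was lost in 4 of the 6 fits that left out a library and in 5 of the 9 other alternatives. With let-7-free totals, 1 of those alternatives, its adjusted p was 0.58 in edgeR. let-7e-3p had a log2 fold change of -0.01, with a 95% interval of -0.44 to 0.42. The let-7e arms together came to 0.670, 0.590 and 0.546 of the summed miR-99b and miR-125a arms in the ΔTUT4/7 libraries and to 0.380, 0.368 and 0.467 in the wild type libraries. This share was higher in all 3 ΔTUT4/7 libraries, by 0.57 on the log2 scale (exact 2-sided permutation test, p = 0.1, adjusted p = 0.275 over the 11 ratios). let-7e-5p differs from let-7a-5p at 1 base, U9G, and let-7a-5p rose from 12746 ± 724 to 20403 ± 609 CPM (± SD over 3 libraries each), a log2 fold change of 0.68 (SE 0.10, adjusted p = 2.83e-04 in edgeR). The part of let-7a reads in the let-7e count was not tested.

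On chromosome 21, let-7c-5p shares its first 18 nt with let-7a-5p and its count was 98.1% to 100.6% of that of let-7a-5p, so let-7c was followed by its 3p arm. let-7c-3p had 29.4, 33.1 and 26.4 CPM in ΔTUT4/7 and 33.1, 35.6 and 35.7 CPM in wild type replicates, and its log2 fold change of -0.23 did not pass the test (95% interval -0.64 to 0.17, adjusted p = 0.32 in edgeR). Set against the summed 3p arms of miR-99a and miR-125b-2, it came to 0.727, 0.958 and 0.770 in the ΔTUT4/7 libraries and to 0.451, 0.548 and 0.515 in the wild type libraries. The ratio was higher in all 3 ΔTUT4/7 libraries, by 0.69 on the log2 scale (exact 2-sided permutation test, p = 0.1, adjusted p = 0.275 over the 11 ratios). In the 2 clusters where it was measured, let-7 therefore stood higher against the summed neighbouring arms in every ΔTUT4/7 than in every wild type library. On chromosome 21 this holds for the sum. let-7c-3p had 26.4 CPM and miR-125b-2-3p 18.3 CPM in ΔTUT4/7 replicate 3, and 35.7 and 21.9 CPM in wild type replicate 3. A ratio to miR-125b-2-3p alone would therefore overlap. By its first 18 nt, miR-125b-2-3p also has 3 places of origin in hg38. Over the whole family, the 19 tested let-7 and miR-98 arms had a median log2 fold change of 2.63, and 14 of them increased by at least 2-fold. The ratio for let-7a-2 on chromosome 11 was not computed, since its 5p arm is shared with other let-7a hairpins.

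Within the chromosome 19 cluster, the ratio of miR-99b to miR-125a overlapped between the strains. The miR-99b arms came to 0.424, 0.404 and 0.385 of the miR-125a arms in ΔTUT4/7 and to 0.357, 0.379 and 0.409 in wild type libraries (log2 difference 0.08, exact 2-sided permutation test, p = 0.3). On chromosome 21 it did not overlap. The miR-99a arms were 16.6, 15.3 and 14.4 times miR-125b-2-3p in ΔTUT4/7 and 20.9, 25.2 and 23.1 times in wild type libraries. All ΔTUT4/7 libraries were lower, by 0.58 on the log2 scale (exact 2-sided permutation test, p = 0.1, adjusted p = 0.275 over the 11 ratios). The miR-99a arms were thus at a lower ratio to miR-125b-2-3p in ΔTUT4/7 cells, while on chromosome 19 the strains overlapped. These ratios are unlike, since chromosome 19 sums both arms of each hairpin and chromosome 21 has only a 3p arm as divisor. By its first 18 nt, that arm also has 3 places of origin in hg38. Of the 3p arms, miR-99a-3p was above miR-125b-2-3p in ΔTUT4/7 replicate 1 (21.1 and 19.3 CPM). In wild type replicate 1 it was the lower (36.3 and 37.2 CPM), so a ratio of 3p arms alone would overlap. A test of the difference between the clusters in this respect was not run.

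The arms of the group II hairpins miR-99a and miR-99b had log2 fold changes of -1.20, -1.19, -0.82 and -0.63, and those of the hairpins not on that list had -0.15, -0.63, -0.90, -1.13 and -1.70. The ranges of these sets overlap. The 51 tested arms named for a single group II hairpin, the 4 miR-99 arms included, had a median of 0.21. Of these, 8 decreased by at least 2-fold, a share near the 13.6% of all tested miRNAs, and 17 increased, against 16.5%. Most of the 17 were let-7 or miR-98 arms. Arms whose names fit several hairpins were not in this set.

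Between clusters, the libraries of the strains overlapped in every ratio. The summed chromosome 21 arms relative to the chromosome 19 arms differed by -0.27 on the log2 scale (exact 2-sided permutation test, p = 0.3), miR-100-5p relative to the chromosome 19 arms by -0.22 (p = 0.2, same exact test), and chromosome 21 relative to chromosome 11 by -0.05 (p = 0.8, same exact test). The chromosome 11 side is miR-100-5p alone, at 14 to 62 counts a library. miR-99a-5p gave 276 of the 312.6 CPM of the chromosome 21 arms in ΔTUT4/7 and 632 of 701.5 CPM in wild type cells. Whether its reads were counted as miR-100-5p was not tested, so the last ratio may not compare separate clusters. The ratio of the seed families overlapped between the strains. miR-125a-5p and miR-125b-5p together were 2.24, 2.37 and 2.53 times the 5p arms with the miR-99 and miR-100 seed in ΔTUT4/7 and 2.58, 2.46 and 2.32 times in wild type libraries (log2 difference -0.04, exact 2-sided permutation test, p = 0.6). Each family was lower in sum in all 3 ΔTUT4/7 libraries. The arms with seed ACCCGUA had 3130 ± 255 against 5680 ± 508 CPM in wild type cells, or 44.9% less, and those with seed CCCUGAG had 7479 ± 1053 against 13965 ± 1718 CPM, or 46.4% less (± SD, n = 3 libraries each; exact 2-sided permutation test, p = 0.1 for both). With 3 libraries a strain, a p of 0.2 or more does not show that the ratios were the same.

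The arm ratios of the miR-99 hairpins overlapped between the strains. miR-99b-5p was 13.3, 16.0 and 15.5 times miR-99b-3p in ΔTUT4/7 and 15.4, 17.2 and 19.1 times in wild type libraries (log2 difference -0.21, exact 2-sided permutation test, p = 0.3). miR-99a-5p was 14.2, 18.4 and 15.5 times miR-99a-3p in ΔTUT4/7 and 20.4, 19.6 and 9.64 times in wild type libraries. Wild type replicate 3 was the lowest of the 6 in the miR-99a ratio, and the log2 difference moved from 0.02 to -0.33 without it (exact 2-sided permutation test, p = 1.0 with it and 0.2 without it).

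**Figure D4:**
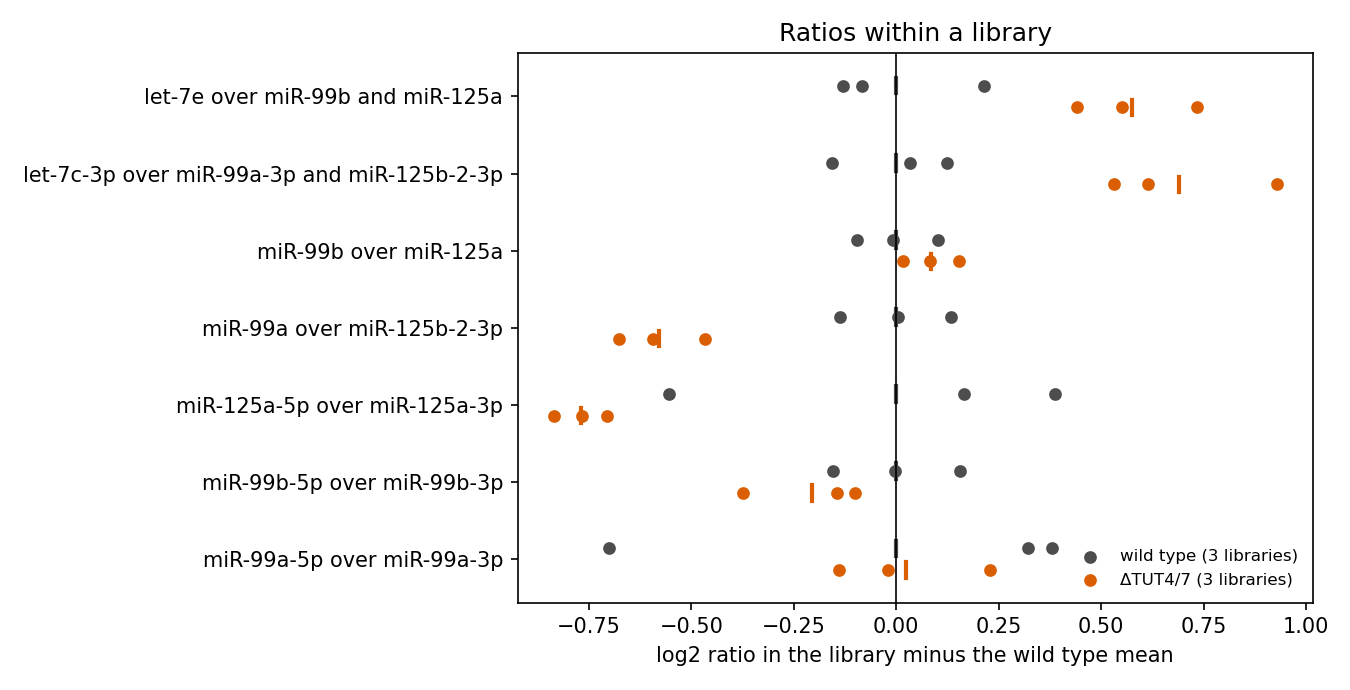
Log2 ratio within each library, minus the wild type mean, for 7 ratios, with 1 point for each of the 3 libraries of a strain and a short bar at the mean. The ΔTUT4/7 points lie apart from the wild type points for both let-7 ratios (above), for miR-99a over miR-125b-2-3p and for the miR-125a arms (below), and overlap them for the other 3.

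In order of level, miR-125a-5p stood above miR-99b-5p, miR-99a-5p, miR-99b-3p, miR-125a-3p, then miR-99a-3p and miR-125b-2-3p, and last miR-125b-5p and miR-100-5p, by mean wild type CPM. miR-99a-3p and miR-125b-2-3p overlapped in their ranges in each strain, and miR-125b-5p and miR-100-5p overlapped in ΔTUT4/7 but not in wild type cells. The other neighbours did not overlap in either strain. Among 383 other miRNAs with a mean above 10 CPM, those whose log2(CPM + 1) followed miR-125a-5p most closely over the 6 libraries were miR-1295a, miR-589-3p and miR-450a-1-3p (Pearson r of 0.98 each), then miR-361-5p and miR-31-5p (0.97 each), which is a description of 6 points that fall into 2 strains. Their log2 fold changes were -1.26, -0.59, -0.93, -0.69 and -1.30 in that order. By the same measure the other 8 arms had r from 0.99 for miR-99b-5p, its neighbour on the transcript, down to 0.80 for miR-99a-3p and 0.21 for miR-125a-3p, which comes from its own hairpin.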

How the data were processed

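Total RNA of 3 ΔTUT4/7 and 3 wild type HEK 293T cultures was used for QIAseq miRNA libraries, which were sequenced on an Illumina instrument. The labels number the replicates of each strain as biological replicates. Reads were cut to 18 nt by the authors, aligned to hg38 by Bowtie 1.0.0 and quantified on miRBase 22 in Partek 10.0.22 (versions from the submitters' processing notes and the study's methods). The deposited values are estimated counts, in which the authors' quantification divided reads that match several miRNAs. They are whole numbers, and the highest are rounded to 3 significant digits. The use of molecular identifiers is not stated in the labels or methods. A second deposited table, the authors' own comparison of the strains with fold changes and p-values, was not used.

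The labels assigned each library to its strain. Counts were tested with edgeR 4.0.16 (estimateDisp, glmQLFit and glmQLFTest; common dispersion 0.0358) in R 4.3.3, with the total count as library size and normalization factors of 1, over 826 miRNAs with a highest count above 7. Ratios were taken per library after adding 0.5 counts to each sum and compared with an exact 2-sided permutation test, with Benjamini-Hochberg adjustment over 11 ratios. Levels and ratios were computed in Python 3.11.15 (pandas 2.3.3, numpy 2.4.6, scipy 1.17.1), and figures drawn with matplotlib 3.10.9. Arms were named if they belong to these hairpins or to the let-7 or miR-10 hairpins beside or related to them, with the 5 other miRNAs most like the most abundant arm. The members, lists and tests were chosen with earlier results of these data known. Mature sequences were read from hg38 for 1000 miRNAs, and all 897 found in the RefSeq table were identical to it. Alternatives were TMM and RLE factors, let-7-free totals, DESeq2 1.42.0, limma-trend (limma 3.58.1), no filter, filterByExpr, a replicate block, summed arms with the same first 18 nt, 1 or 5 counts added in ratios, and each library left out.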

Additional observations from a re-analysis of the deposited data

How the results depend on the processing

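The number of arms decreased by at least 2-fold was 4, and 1 with let-7-free totals, which also took the share of increases among all 2-fold calls from 54.8% to 69.3%. It was 3 with limma-trend, 4 with every other alternative fit to all libraries, and 4 to 5 with a library left out (5 without ΔTUT4/7 replicate 3). At any fold it was 8, then 6 with let-7-free totals and 6 to 8 with a library left out. No arm increased by 2-fold in any of these fits. Same-numbered libraries had correlations of -0.17, -0.16 and -0.25 in their deviations from the strain means. The labels and methods do not say whether same-numbered cultures were handled together, and these correlations cannot decide it. With the replicate number as a replicate block, 4 arms were lower by 2-fold and 7 at any fold.

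Signs that turned were those of values near 0. let-7e-3p was 0.029 with TMM, 0.21 with let-7-free totals, 0.082 without ΔTUT4/7 replicate 3 (range with a library left out -0.097 to 0.082), 0.013 without wild type replicate 1 and 0.028 without wild type replicate 3. miR-10a-3p was -0.018 with RLE and with DESeq2, -0.035 without ΔTUT4/7 replicate 1 and -0.052 without wild type replicate 1 (range to 0.10). miR-125a-3p was 0.074 with let-7-free totals and 0.043 without wild type replicate 3 (range from -0.27). miR-10a-5p was 0.14 with let-7-free totals and 0.084 without wild type replicate 1. The log2 difference of the miR-99a arm ratio was -0.019 with 5 counts added, and -0.33 to 0.21 with a library left out (-0.08 without ΔTUT4/7 replicate 2). That of chromosome 21 over chromosome 11 was -0.20 to 0.12 with a library left out (0.07 without ΔTUT4/7 replicate 2, 0.12 without wild type replicate 1). The causes were not tested. The other ratios kept their sign, and the same design cannot give a p under 0.1. The planned ratio for let-7a-2-3p was not run, since no row gave it a count. The 13 to 139 counts of miR-125b-5p and the 14 to 62 counts of miR-100-5p per library limit their precision.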

Other observations

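The miR-10 arms are the remaining relatives of miR-99, miR-100 and miR-125, and lie in the HOX gene clusters. miR-10a-5p was more abundant than any arm above, at 24724 ± 330 CPM in ΔTUT4/7 against 26190 ± 6082 CPM in wild type cells (± SD over 3 libraries each), with a log2 fold change of -0.08 (95% interval -0.41 to 0.24). miR-10b-5p had 4215, 3995 and 4060 CPM in ΔTUT4/7 and 9128, 7557 and 5690 CPM in wild type replicates, which did not overlap, and its log2 fold change was -0.87 (SE 0.16, adjusted p = 9.75e-04 in edgeR). Without wild type replicate 3 it passed the 2-fold limit, at -1.03, and with let-7-free totals it was -0.64 (adjusted p = 0.0059 in edgeR). miR-10b-3p decreased by less than 2-fold, with a log2 fold change of -0.52 (adjusted p = 0.012 in edgeR), and its adjusted p was over 0.05 in 2 of the 6 fits with a library left out. With let-7-free totals the value for miR-10b-3p was -0.30 (adjusted p = 0.11 in edgeR). miR-10a-3p had a log2 fold change of 0.02 (95% interval -0.28 to 0.33). None of the 4 arms decreased by at least 2-fold, and 2 decreased at any fold with an adjusted p under 0.05, against 21.9% of all tested miRNAs.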
